A study of Mus musculus with 6 samples.

Results

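Collagen chains were taken as every gene of the deposited count table whose symbol is Col, digits, a, digits, which gave 44 of 21959 genes. All 44 were matched to the GENCODE M21 annotation by Ensembl gene ID. By their known structure, 11 of them encode fibrillar chains, 9 network chains, 6 beaded-filament chains, 4 transmembrane chains, 9 FACIT chains (fibril-associated collagens with interrupted triple helices), 2 multiplexins, 1 the anchoring-fibril chain and 2 other chains. RNA was measured in MPC, a mouse gastric adenocarcinoma line with the genotype Cdh1-/-;Trp53-/-, and in MPC-PTX, its derivative with the same genotype after over 30 cycles of PTX (paclitaxel), with 3 libraries per line. The study calls these lines MTC and MTC-R. Both descend from gastric organoids of a C57BL/6 J mouse carrying floxed Trp53 and Cdh1 alleles and Mist1-CreER, passed through a subcutaneous tumour in a BALB/c nude mouse, and each was selected as a single clone, so a difference between the lines and a difference between 2 clones cannot be told apart. Both lines were grown in the same medium, all 6 libraries carry batch label 1, and nothing in the labels says that the libraries of a line came from separate cultures, so p-values measure only the spread between these libraries, which may be technical.

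Collagens are triple-helical proteins of the extracellular matrix, assembled from chains that share a glycine-rich repeat. Fibrillar chains build the cable-like fibrils made mainly by fibroblasts, whereas type IV chains build the sheet-like network of the basement membrane on which epithelial cells rest. Chains are hydroxylated and folded in the endoplasmic reticulum, exported, trimmed and cross-linked outside the cell, and a chain normally leaves the cell only as part of a trimer with its partners.

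The libraries held between 16574580 and 23148182 counts and between 13897 and 14295 detected genes. MPC replicate 3 stood farthest from its line mates, with an SD of 0.433 for the log2 differences and a Spearman correlation across genes of -0.607 with GC content and 0.477 with transcript length, whereas MPC replicate 1 had an SD of 0.389 with correlations of the opposite sign (0.491 and -0.438). The SD was 0.261 for MPC replicate 2 and 0.189 to 0.208 for the MPC-PTX libraries. Trp53 had 98, 63 and 120 counts in the MPC libraries and 142, 130 and 111 in the MPC-PTX libraries. Cdh1 had 2561, 2555 and 2812 counts in MPC and 3068, 3018 and 2217 in MPC-PTX. Both groups carry the same deletions and counts per gene hold no exon detail, so these values check neither the alleles nor the labels. Of the epithelial markers, 10 of 10 were tested and 9 fell in MPC-PTX, beside 15.6% of all genes tested, and their summed level went from between 9848 and 11353 CPM (counts per 1000000, after TMM scaling of the library sizes) in MPC to between 5987 and 6170 in MPC-PTX. Of 10 fibroblast markers, 2 were tested and none passed the adjusted p threshold of 0.05, with a summed level of 4.46 to 5.82 CPM in MPC and 6.02 to 7.07 in MPC-PTX, mostly from Pdgfra (3.58 and 4.59 CPM on average). The 8 endothelial markers summed to 3.45 to 4.89 and 3.20 to 3.50 CPM, and the 8 leukocyte markers to 11.1 to 12.6 and 9.50 to 10.6 CPM, the latter almost wholly from Cd68 (11.5 and 9.47 CPM on average). Tcf21 of the fibroblast list and Cldn5 of the endothelial list were at 0 in every library. The part of these marker levels in the collagen results was not tested, and in bulk RNA fewer cells of a type and less RNA per cell cannot be told apart.

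Most collagen reads of both lines came from basement-membrane chains. Of the 44 chains, 17 had enough counts to be tested, 21 had at least 1 count but were not tested, with no more than 17 counts in any library, and 6 had no count in any library. The test was edgeR's quasi-likelihood test, fitted on all 11795 genes with enough counts, with p-values adjusted over them by Benjamini-Hochberg. At the threshold of 0.05, 8 tested chains were higher in MPC-PTX, against 14.1% of all genes tested. In the same test 3 chains were lower, against 15.6% of all genes tested. The higher chains were Col4a1, Col4a2, Col4a3, Col4a4, Col8a1, Col5a1, Col6a1 and Col15a1, and the lower chains were Col18a1, Col27a1 and Col1a1. The rule of the study's methods (a log2 fold change beyond 1 and an unadjusted p below 0.05) was applied to this edgeR fit. By it 4 chains were higher (Col4a3, Col4a4, Col5a1 and Col6a1), against 3.77% of all genes, and 2 were lower (Col18a1 and Col27a1), against 4.34%. The study used DESeq and names Col4a1 to Col4a4, Col6a1, Col6a2, Col1a2 and Col2a1 among the genes it found upregulated. The CPM of the 3 libraries of a line did not overlap with those of the other line in 13 of the 17 tested chains, against 46.9% of all genes. Col6a1 and Col16a1 had fewer than 10 counts in an MPC library and were tested only through their MPC-PTX counts, so these numbers describe the chains that passed the filter and not all 44.

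**Figure D1:**
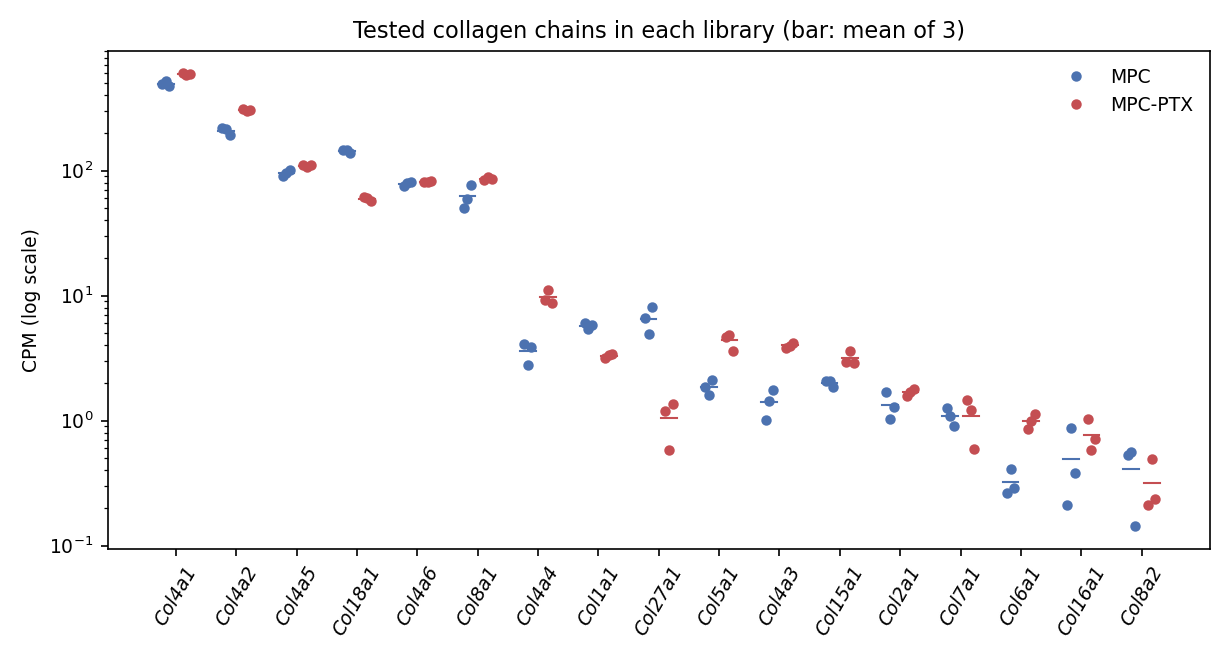
CPM (log axis) of the 17 tested chains in each library, ordered by mean, with points for libraries and bars for the mean of 3. The 6 chains from Col4a1 to Col8a1 lie above 50 CPM in every library, and no other chain reaches 12 CPM.

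The Col4a1, Col4a2, Col4a5, Col4a6, Col8a1 and Col18a1 chains held nearly all collagen reads. Network chains made up 84.8%, 85.5% and 85.1% of collagen reads in the MPC libraries and 93.7%, 93.6% and 94.0% in the MPC-PTX libraries. Their share was thus 85.1% ± 0.371 (SD, n = 3) in MPC and 93.8% ± 0.200 in MPC-PTX, with no overlap between the lines. Multiplexins, the basement-membrane proteoglycan-like collagens, moved the other way, from 13.1% ± 0.315 to 4.94% ± 0.154. The mean share of network chains was 8.65 percentage points higher in MPC-PTX and that of multiplexins fell by 8.11, so these 2 classes held most of the difference. Fibrillar chains held 1.50% ± 0.247 of collagen reads in MPC and 0.947% ± 0.0333 in MPC-PTX. Beaded-filament chains held 0.0712% ± 0.00629 and 0.124% ± 0.0302, and transmembrane chains 0.0342% ± 0.0260 and 0.0137% ± 0.0133. FACIT chains held 0.107% in each line. No p is given for a share or a total, since 3 libraries against 3 cannot go below an exact permutation p of 0.1.

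**Figure D2:**
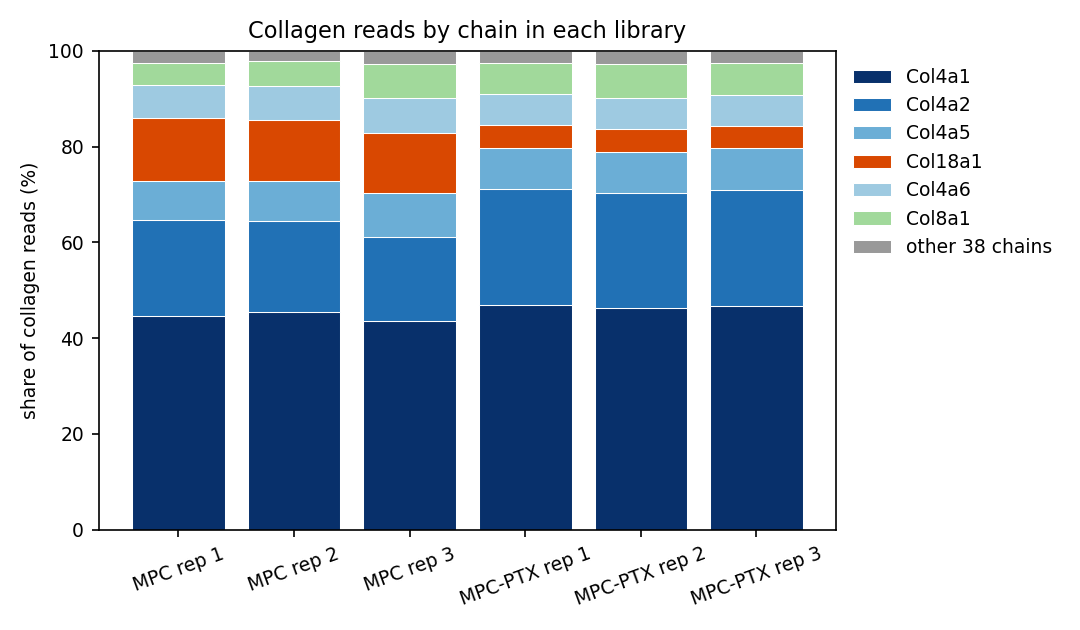
Share of collagen reads (percent, stacked to 100) taken by the 6 chains with the most reads and by the other 38 chains together, in each library. The Col18a1 segment shrinks from 12.9% on average in MPC to 4.70% in MPC-PTX and the Col4a2 segment grows from 18.8% to 24.1%.

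Summed over the 44 chains, collagen reads were 1103, 1140 and 1101 CPM in MPC and 1283, 1258 and 1270 CPM in MPC-PTX. The total was 1115 CPM ± 22.0 (SD, n = 3) in MPC and 1270 CPM ± 12.1 in MPC-PTX, a ratio of 1.14, and the lines did not overlap. Network chains went from 949.0 to 1191 CPM (ratio 1.26) while multiplexins went from 145.5 to 62.8 CPM, 2.32 times lower. The fibrillar chains together went from 16.7 CPM ± 2.45 to 12.0 CPM ± 0.348.

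Within the network class, the type IV chains are encoded by 3 pairs of genes that lie head to head, each pair on its own chromosome. Col4a1 (chr8:11198423-11312826, minus strand) and Col4a2 (chr8:11312805-11449287, plus strand) overlap at their 5′ ends, and their start positions differ by 21. The start positions of Col4a3 (chr1:82586921-82722059, plus strand) and Col4a4 (chr1:82448423-82586849, minus strand) differ by 72, without overlap. Col4a5 (chrX:141475385-141689234, plus strand) and Col4a6 (chrX:141165403-141474076, minus strand) start 1309 bases apart. These positions are from the GENCODE M21 annotation of GRCm38. The start regions are shown from the RefSeq promoter windows of GRCm38.p6, which were held for 35 of the 44 chains. A window runs from 250 bases before to 50 after a gene's start. The windows of Col4a1 and Col4a2 overlap, whereas those of Col4a5 and Col4a6 share no base. Capitals in the Col4a1 and Col4a2 sequence (chr8:11312777-11312854, plus strand, the 78 bases in both windows) mark the 22 bases from the start of Col4a2 to that of Col4a1. In the Col4a4 and Col4a3 sequence (chr1:82586800-82586920, minus strand) capitals mark the 71 bases that lie between the starts. Capitals in the windows of Col4a5 (chrX:141475169-141475468, plus strand) and Col4a6 (chrX:141474027-141474326, minus strand) mark matches to the motifs described after them.
Col4a1 and Col4a2: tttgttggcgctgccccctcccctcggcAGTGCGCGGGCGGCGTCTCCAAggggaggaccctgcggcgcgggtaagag
Col4a4 and Col4a3: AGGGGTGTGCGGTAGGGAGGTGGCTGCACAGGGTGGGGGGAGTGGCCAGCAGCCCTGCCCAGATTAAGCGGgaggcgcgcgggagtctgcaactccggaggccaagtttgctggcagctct
Col4a5: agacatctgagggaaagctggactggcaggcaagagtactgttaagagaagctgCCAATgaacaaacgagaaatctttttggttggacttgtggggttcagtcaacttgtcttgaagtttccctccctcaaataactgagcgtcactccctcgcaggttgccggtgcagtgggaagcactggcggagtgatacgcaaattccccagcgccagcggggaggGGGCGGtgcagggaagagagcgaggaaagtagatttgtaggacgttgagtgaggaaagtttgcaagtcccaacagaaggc
Col4a6: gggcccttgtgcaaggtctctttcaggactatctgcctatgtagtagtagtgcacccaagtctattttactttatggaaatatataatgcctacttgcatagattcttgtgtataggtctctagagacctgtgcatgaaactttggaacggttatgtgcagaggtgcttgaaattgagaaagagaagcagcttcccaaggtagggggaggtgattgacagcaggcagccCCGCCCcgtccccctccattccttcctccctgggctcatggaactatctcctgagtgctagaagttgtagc
Each window was searched on both strands for GGGCGG (GC box), CCAAT and TATAAA, which do not overlap one another as written. The window of Col4a1 held 1 GC box and 1 CCAAT, that of Col4a2 held 3 GC boxes and 1 CCAAT, and that of Col4a4 held none of the motifs. The Col4a5 window held 1 GC box and 1 CCAAT, and the Col4a6 window 1 GC box. Of all 32851 windows in the table, 35.7% held GGGCGG, 37.4% held CCAAT and 13.6% held TATAAA. G and C made up 74.0% of the Col4a1 window, 73.7% of the Col4a2 window and 63.3% of the Col4a4 window but 52.7% and 48.3% of the Col4a5 and Col4a6 windows, beside a median of 52.7% over all windows. These matches describe letters and no binding was measured.

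Col4a1 and Col4a2 encode the chains of the type IV trimer found in nearly all basement membranes. Col4a1, the chain with the most reads, was at 493, 519 and 479.7 CPM in MPC and 601, 584 and 594 CPM in MPC-PTX. Every MPC-PTX library was above every MPC library, and Col4a1 rose by a log2 fold change of 0.25 (SE 0.06, edgeR adjusted p = 0.0152). This call was lost without any 1 of the 3 MPC-PTX libraries, with an adjusted p of 0.0816, 0.0678 and 0.0753 in edgeR without replicate 1, 2 and 3. Col4a2 was at 219.7, 214.6 and 193 CPM in MPC and 311, 302 and 306 CPM in MPC-PTX, with a wider gap between the lines than its own spread. Its log2 fold change was 0.55 (SE 0.07, edgeR adjusted p = 0.00109), so the partner chains rose by different amounts. In the 22 bases where the 2 genes overlap, reads of both cannot be told apart if the counts do not separate strands. These bases are under 1% of either gene's exons (0.295% and 0.332%).

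Col4a3 and Col4a4 encode chains that join the Col4a5 chain in the trimer of mature kidney glomerular and some other basement membranes. Col4a3 counts were 19, 28 and 37 in MPC and 90, 88 and 71 in MPC-PTX, or 1.01, 1.44 and 1.78 CPM against 3.84, 3.97 and 4.22 CPM. All MPC-PTX libraries were above all MPC libraries, and Col4a3 rose by a log2 fold change of 1.49 (SE 0.22, edgeR adjusted p = 0.00258). An antisense gene without a row in the table covers 5.65% of its exons, and reads of both genes cannot be told apart where the library kit does not mark strand. Col4a4 counts were 77, 54 and 81 in MPC and 216, 248 and 148 in MPC-PTX, or 4.09, 2.78 and 3.89 CPM against 9.22, 11.2 and 8.79 CPM. The lines were again apart, with a log2 fold change of 1.44 (SE 0.18, edgeR adjusted p = 0.00130). Both members of this pair thus rose by about the same factor (2.82 and 2.71 times) from a low level.

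Col4a5 and Col4a6, which form a trimer of certain basement membranes in smooth muscle and epithelia, were abundant, and neither passed the test. Col4a5 was at 90.5, 96.4 and 101 CPM in MPC and 110.8, 106.9 and 110.9 CPM in MPC-PTX. Although the lines did not overlap, its log2 fold change of 0.19 (SE 0.07, edgeR adjusted p = 0.0711) did not pass. Without MPC replicate 3 the edgeR adjusted p of Col4a5 was 0.0289. Col4a6 was at 75.4, 80.2 and 80.5 CPM in MPC and 81.9, 81.0 and 82.5 CPM in MPC-PTX, a log2 fold change of 0.06 (SE 0.06, edgeR adjusted p = 0.542). All 6 type IV chains together held 79.5% ± 1.20 (SD, n = 3) of collagen reads in MPC and 87.0% ± 0.364 in MPC-PTX.

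Levels of different chains were compared per kilobase of merged exon. Merged exons hold every annotated exon of a gene, so the size of a ratio between chains depends on the annotation. Col4a1 was 1.99, 2.15 and 2.20 times the level of Col4a2 in the MPC libraries but 1.71, 1.71 and 1.72 times in the MPC-PTX libraries. The ratio was lower and tighter in MPC-PTX, with no overlap. Col4a5 over Col4a6 went the other way by a smaller margin, from 1.43, 1.43 and 1.49 to 1.60, 1.57 and 1.60. Col4a5 exceeded Col4a4 by 43.6 ± 10.1 times (SD, n = 3) in MPC and 18.0 ± 2.55 times in MPC-PTX, and exceeded Col4a3 by 105.5 ± 24.9 and 40.6 ± 1.94 times. The shortfall of Col4a3 and Col4a4 against Col4a5 was therefore smaller in MPC-PTX, yet both stayed far below it. Col4a4 over Col4a3 overlapped between the lines, at 1.81 to 3.81 in MPC and 1.96 to 2.65 in MPC-PTX. Col4a1 over Col4a5 also overlapped, at 4.67 ± 0.350 in MPC and 4.87 ± 0.0463 in MPC-PTX.

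**Figure D3:**
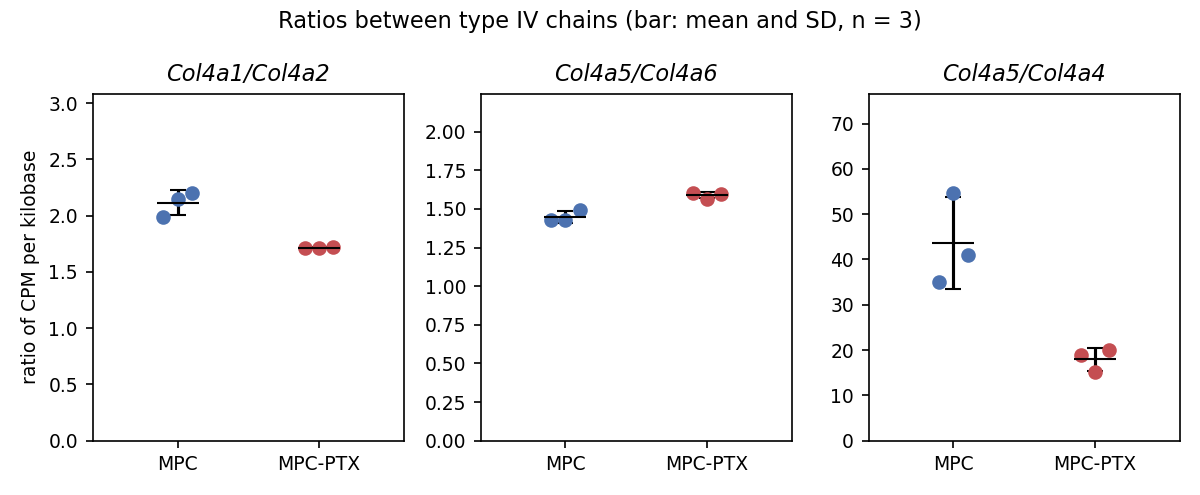
Ratio of CPM per kilobase between pairs of type IV chains in each library, with the mean and SD of 3 libraries per line and a separate vertical axis from 0 in each panel. Col4a1 over Col4a2 and Col4a5 over Col4a4 are lower in every MPC-PTX library than in any MPC library, and Col4a5 over Col4a6 is higher.

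The other network chains are the short chains of types VIII and X. Col8a1, a subunit of the hexagonal lattices under endothelia and in vessel walls, was at 50.8, 59.2 and 77.5 CPM in MPC and 83.9, 88.4 and 86.3 CPM in MPC-PTX. MPC replicate 3 lay close to the MPC-PTX range, and the MPC spread was 13.7 CPM (SD) against 2.24 CPM in MPC-PTX. Col8a1 rose by a log2 fold change of 0.46 (SE 0.15, edgeR adjusted p = 0.0496), at the edge of the threshold. Without MPC replicate 1 or 2 the edgeR adjusted p of Col8a1 was 0.0616 and 0.165, and without MPC-PTX replicate 1, 2 or 3 it was 0.120, 0.147 and 0.135. Without MPC replicate 3 the edgeR adjusted p of Col8a1 was instead 0.000195, and with a correction for GC content and length it was 0.00243. Its partner chain Col8a2 had 10, 11 and 3 counts in MPC and 5, 11 and 4 in MPC-PTX, which overlapped (log2 fold change -0.35, SE 0.60, edgeR adjusted p = 0.695). Col10a1, the type X chain of hypertrophic cartilage, had 1 to 2 counts per library in MPC and 1 to 4 in MPC-PTX.

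The multiplexins split. Col18a1, a basement-membrane chain whose C-terminal fragment is endostatin, was at 145.8, 145.3 and 139 CPM in MPC and 61.1, 60.1 and 57.7 CPM in MPC-PTX. The lines were far apart relative to their spread of 3.62 and 1.79 CPM (SD, n = 3). Col18a1 fell by 1.27 on the log2 scale (SE 0.06, edgeR adjusted p = 2.71e-05), or 2.41 times. Per kilobase it was the third most abundant chain in MPC, at 20.4 CPM per kb after Col4a1 (66.6) and Col4a2 (31.6), and the sixth in MPC-PTX, at 8.49 CPM per kb, behind Col4a1 (79.4), Col4a2 (46.3), Col4a5 (16.3), Col8a1 (11.0) and Col4a6 (10.3). RefSeq gave 2 promoter windows for Col18a1, 52825 bases apart, and counts per gene do not tell which start the reads came from. Col15a1, the other multiplexin, had 39, 40 and 39 counts in MPC and 69, 80 and 49 in MPC-PTX. In CPM these were 2.07, 2.06 and 1.87 against 2.95, 3.61 and 2.91, with no overlap. Col15a1 rose by a log2 fold change of 0.66 (SE 0.17, edgeR adjusted p = 0.0269). That call was lost without MPC replicate 2 or 3, at an edgeR adjusted p of 0.0687 and 0.0514, and without MPC-PTX replicate 1, 2 or 3, at 0.0692, 0.119 and 0.0646. Per kilobase, Col18a1 was 64.9 ± 2.05 times Col15a1 in MPC and 17.3 ± 1.93 times in MPC-PTX.

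Fibrillar chains were scarce in both lines, and the tested ones did not move together. Of 11 chains, 4 were tested, 1 rose, 2 fell and 1 did not pass. Col27a1, a fibrillar chain best known from cartilage, had 125, 95 and 169 counts in MPC and 28, 13 and 23 in MPC-PTX, or 6.64, 4.90 and 8.12 CPM against 1.20, 0.586 and 1.37 CPM. Even the lowest MPC library was several times the highest MPC-PTX library, and Col27a1 fell by 2.66 on the log2 scale (SE 0.32, edgeR adjusted p = 0.00109). It thus had the largest fold change of the 17 tested chains, 6.32 times. Col1a1, the main chain of type I collagen in skin, bone and scar, had 114, 105 and 122 counts in MPC and 74, 74 and 58 in MPC-PTX. At 6.05, 5.41 and 5.86 CPM against 3.16, 3.33 and 3.44 CPM the lines did not overlap, and Col1a1 fell by 0.80 on the log2 scale (SE 0.13, edgeR adjusted p = 0.00389). Its partner Col1a2 had 7, 4 and 8 counts in MPC and 4, 17 and 10 in MPC-PTX, and was not tested. Col1a1 exceeded Col1a2 per kilobase by 28.9 to 49.7 times in MPC and by 8.24 to 35.0 times in MPC-PTX. These ratios rest on few Col1a2 counts and on merged exon lengths of 6563 bases for Col1a1 and 12426 for Col1a2.

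Col5a1, the type V chain that starts and limits fibrils, was the fibrillar chain that rose. It had 35, 31 and 44 counts in MPC and 110, 108 and 61 in MPC-PTX, or 1.86, 1.60 and 2.11 CPM against 4.70, 4.87 and 3.62 CPM. Each MPC-PTX library was above each MPC library, with a log2 fold change of 1.25 (SE 0.19, edgeR adjusted p = 0.00328). Genes on the opposite strand without a row in the table cover 1.17% and 1.33% of its exons. The partner chain Col5a2 had 7, 8 and 8 counts in MPC and 12, 9 and 3 in MPC-PTX. Col5a1 over Col5a2 per kilobase was 4.38 to 6.21 in MPC and 10.4 to 23.0 in MPC-PTX, on these few counts. Col2a1, the type II chain of cartilage, was at 1.70, 1.03 and 1.30 CPM in MPC and 1.58, 1.71 and 1.78 CPM in MPC-PTX, which overlapped (log2 fold change 0.33, SE 0.24, edgeR adjusted p = 0.338). Col3a1, the type III partner of type I in soft tissue, had 2 to 5 counts per library in MPC and 3 to 6 in MPC-PTX. Col11a2 had 5, 3 and 4 counts in MPC and 8, 8 and 8 in MPC-PTX. Col5a3 and Col11a1 stayed at or under 4 counts per library, and Col24a1 had none, which allows up to 0.0501 CPM in MPC and 0.0487 in MPC-PTX (3 counts over a line's 3 libraries, counting error only).

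**Figure D4:**
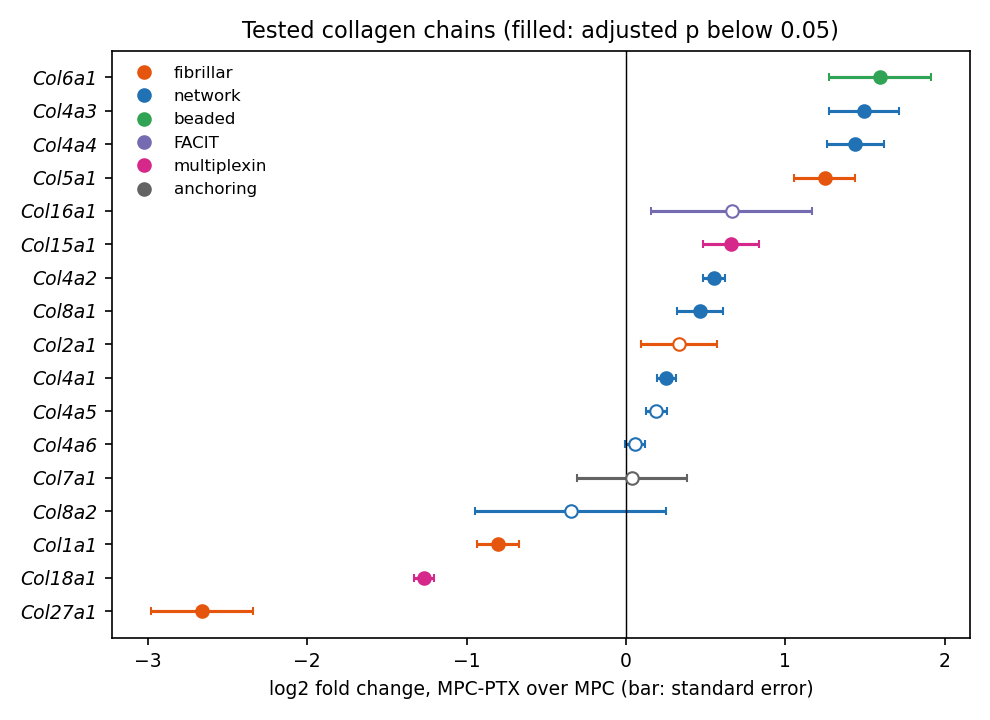
Log2 fold change of MPC-PTX over MPC for the 17 tested chains, coloured by class, with bars for the standard error and filled points for an adjusted p below 0.05. Values run from -2.66 for Col27a1 to 1.59 for Col6a1, and fibrillar, network and multiplexin chains appear on both sides of 0. The network chain below 0 is Col8a2 (-0.35), which did not pass.

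Of the beaded-filament class, the microfibrils of type VI collagen that lie around cells, only the Col6a1 chain passed the filter. Col6a1 had 5, 8 and 6 counts in MPC and 20, 22 and 19 in MPC-PTX. It rose from 0.322 CPM ± 0.0790 (SD, n = 3) to 0.991 CPM ± 0.137 with no overlap, a log2 fold change of 1.59 (SE 0.32, edgeR adjusted p = 0.00946), though it was tested only through its MPC-PTX counts. Its trimer partner Col6a2 had 7, 5 and 6 counts in MPC and 9, 8 and 15 in MPC-PTX, a ratio of 1.73 with a 95% counting interval from 0.940 to 3.27. The Col6a3 chain, also needed for the usual type VI trimer, had 1, 2 and 4 counts in MPC and 2, 1 and 0 in MPC-PTX. Col6a4 and Col6a6 had at most 2 counts in a library, and Col6a5 had none.

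Transmembrane collagens were near the floor of detection, with 1, 12 and 10 counts for the class in MPC and 8, 4 and 0 in MPC-PTX. Col17a1, the hemidesmosome chain that anchors basal epithelial cells, held all of those in MPC, with 1, 12 and 10 counts, and 7 of 12 in MPC-PTX, with 6, 1 and 0. Its ratio of MPC-PTX over MPC was 0.296 with a 95% counting interval from 0.107 to 0.711, but the libraries of the lines overlapped and the interval covers counting error alone. Col23a1 had 2, 2 and 0 counts in MPC-PTX and none in MPC, Col25a1 had a single count, and Col13a1 had none.

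FACIT chains, which decorate the surface of fibrils, had 9 members in the table and 1 that was tested. Col16a1 had 4, 17 and 8 counts in MPC and 24, 13 and 12 in MPC-PTX, which overlapped (log2 fold change 0.66, SE 0.51, edgeR adjusted p = 0.362). Col20a1 had 4, 6 and 12 counts in MPC and 2, 11 and 3 in MPC-PTX. Col12a1, a chain of tendon and stromal fibrils, had 3 to 4 counts in every library. Col9a1, Col19a1 and Col22a1 had no count. Col7a1, the chain of the anchoring fibrils that tie epithelial basement membrane to stroma, was at 1.27, 1.08 and 0.913 CPM in MPC and 1.45, 1.22 and 0.594 CPM in MPC-PTX. The lines overlapped, and its log2 fold change of 0.04 (SE 0.35, edgeR adjusted p = 0.943) changed sign in 6 of 14 alternative analyses. Col26a1 and Col28a1 had at most 1 count in a library.

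Genes near the chains were examined for the direction of their own changes. All 7 tested genes within 1 Mb of Col4a1, other than collagen chains, had positive log2 fold changes, 5 of them past the test, with a median of 0.41 beside 0.04 over all genes. That median is above the 0.25 of Col4a1 and under the 0.55 of Col4a2. Of all genes tested, 55.2% had a positive log2 fold change, 14.1% were called higher and 15.6% lower. The 5 tested genes around Col4a4 were likewise all positive, 3 past the test, with a median of 0.42, which is under the 1.44 of Col4a4 and the 1.49 of Col4a3. Around Col18a1, 10 of 18 tested genes were called lower and none higher, with a median of -0.39, and 4 had a positive log2 fold change. Col6a1 (chr10:76708792-76726168), on the same stretch of chromosome 10 as Col18a1 (chr10:77052178-77166548), rose although 12 of its 21 tested neighbours were called lower and none higher. Of those 21 neighbours, 5 had a positive log2 fold change. Around Col27a1, 3 of 18 neighbours were called higher and 3 lower, near the shares over all genes, with a median of 0.12. The other called chains had mixed neighbours. Near Col8a1, which rose, 0 of 10 were called higher and 2 lower, with a median of -0.11. Near Col5a1, which also rose, 3 of 22 were called higher and 4 lower (median 0.08). For Col15a1, which rose, the numbers were 4 and 1 of 14 (median 0.23). For Col1a1, which fell, they were 5 and 8 of 32 (median 0.02). Windows of chains on the same stretch share genes, DNA copy number was not measured here, and the part of the region in these changes was not tested.

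The genes that make, trim and cross-link collagen, and its receptors, were followed as 5 lists. Of 46 genes, 28 were tested, 8 were called higher and 4 lower, beside 14.1% and 15.6% of all genes tested, so the share called lower was near the background. The median log2 fold change was 0.26 beside 0.04 over all genes tested, and the counts of single lists that follow rest on few genes and stand beside the same 14.1% and 15.6%. The prolyl and lysyl hydroxylase list, which holds the enzymes that stabilise the helix and prepare cross-links, had 10 of 12 genes tested, 4 higher and 1 lower. Plod2, a lysyl hydroxylase for cross-linking sites at the chain ends, had 151, 155 and 162 counts in MPC and 425, 410 and 326 in MPC-PTX. Plod2 rose by a log2 fold change of 1.23 (SE 0.09, edgeR adjusted p = 0.000126), and no library of a line came near the other line. The most abundant genes of the list were P4hb, the common subunit of prolyl 4-hydroxylase, at 1058 CPM ± 84.8 (SD, n = 3) and 1222 CPM ± 6.65 (log2 fold change 0.21, SE 0.07, edgeR adjusted p = 0.0724), and Plod3. Plod3, which also glycosylates type IV chains, rose from 93.0 CPM ± 11.5 to 122 CPM ± 3.76 (log2 fold change 0.39, SE 0.10, edgeR adjusted p = 0.0211).

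In the folding, glycosylation and export list, 6 of 9 genes were tested, 2 were called higher, Fkbp14 among them, and none lower. Fkbp14, a prolyl isomerase of the endoplasmic reticulum, had 5, 6 and 10 counts in MPC and 30, 38 and 22 in MPC-PTX, with a log2 fold change of 2.00 (SE 0.32, edgeR adjusted p = 0.00373). Like Col6a1, it was below the filter in all 3 MPC libraries and was tested only through its MPC-PTX counts, so its call is a description and no support for the list. The most abundant members did not pass: Colgalt1, a collagen galactosyltransferase, had a log2 fold change of 0.19 (SE 0.07, edgeR adjusted p = 0.0853) and Mia2, an export factor, one of -0.06 (SE 0.18, edgeR adjusted p = 0.842). Serpinh1, the procollagen chaperone Hsp47 (named here after its values were seen), had 3, 3 and 2 counts in MPC and 6, 5 and 2 in MPC-PTX, whereas Col4a1 had 9275 to 14068 counts per library.

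Of the procollagen processing list, 3 of 8 genes were tested, 1 was called higher and 1 lower. Bmp1, the C-proteinase of fibrillar procollagens, fell by 0.57 on the log2 scale (SE 0.07, edgeR adjusted p = 0.00155), and Pcolce, its enhancer, rose by 0.49 (SE 0.09, edgeR adjusted p = 0.00616). In the cross-linking list 4 of 7 genes were tested, 1 higher and 1 lower. Tgm2, a transglutaminase that cross-links many matrix proteins, had 1292, 1434 and 1298 counts in MPC and 488, 434 and 302 in MPC-PTX, and fell by 1.81 on the log2 scale (SE 0.10, edgeR adjusted p = 3.81e-05). Loxl4, a lysyl oxidase family member, rose by 0.43 (SE 0.07, edgeR adjusted p = 0.00448). Among 10 collagen receptors 5 were tested, none was called higher and 1 was called lower. Itga2, which with Itgb1 forms the collagen-binding integrin of epithelia and platelets, had 263, 355 and 452 CPM in MPC and 171, 190.0 and 180.3 CPM in MPC-PTX and fell by 0.98 on the log2 scale (SE 0.18, edgeR adjusted p = 0.00834). Itgb1 had a log2 fold change of 0.23 (SE 0.10, edgeR adjusted p = 0.124).

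**Figure D5:**
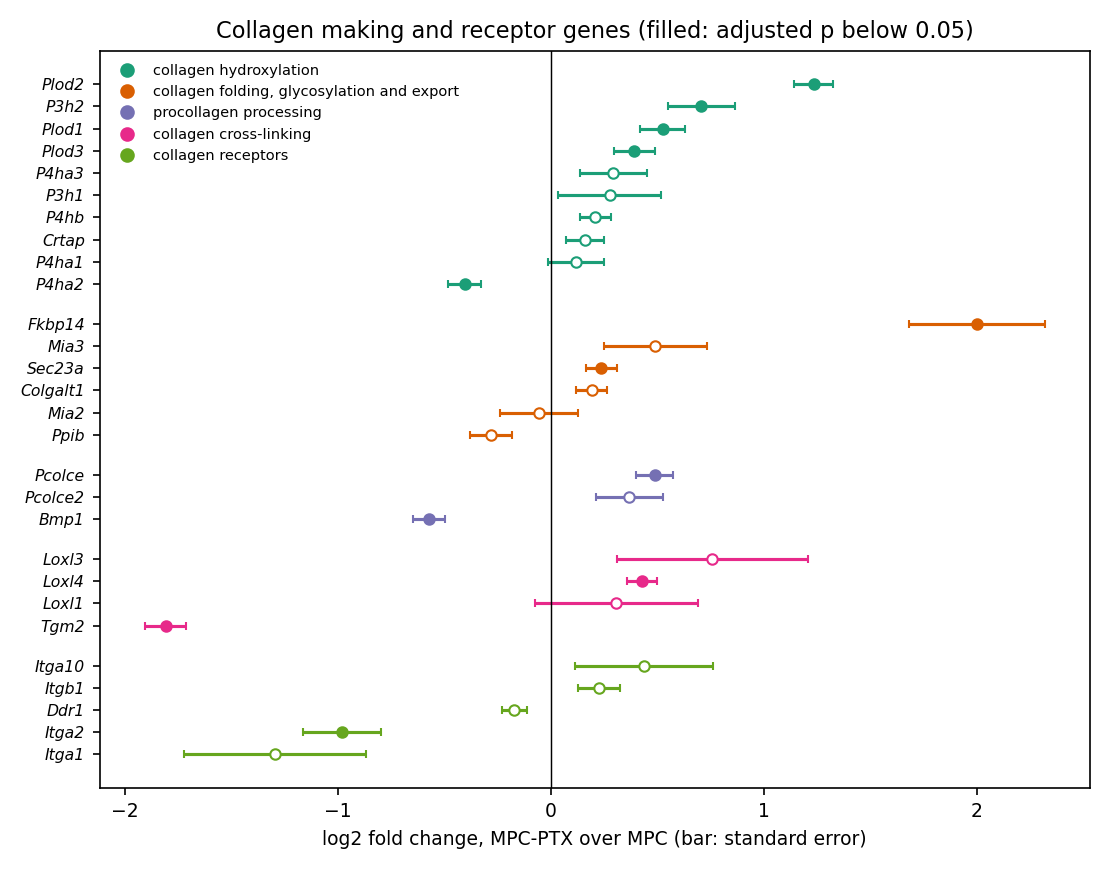
Log2 fold change of MPC-PTX over MPC for the 28 tested genes of the collagen making and receptor lists, grouped by list, with bars for the standard error and filled points for an adjusted p below 0.05. Fkbp14 (2.00, tested only through its MPC-PTX counts) and Plod2 (1.23) lie farthest to the right and Tgm2 (-1.81) farthest to the left.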

How the data were processed

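RNA-seq counts of 3 MPC and 3 MPC-PTX libraries were used. The authors selected poly-A RNA, filtered reads with fastp 0.22.0 and mapped them with HISAT2, and deposited raw counts per gene. The genome release, counting tool and strand setting are not given in the sources used here, and the protocol describes no strand marking. The per-sample tables held the same values as the series table. Counts were tested with edgeR 4.0.16 (glmQLFit robust, TMM, filterByExpr with a minimum count of 10), MPC-PTX against MPC with no covariate, in place of the DESeq of the study, and p-values were adjusted by Benjamini-Hochberg over 11795 genes. CPM used TMM-scaled totals, and levels per kilobase used merged exons of GENCODE M21. The fit was tested on simulated counts. Chains with an adjusted p below 0.05 or at least 5 CPM, and their partners, were given in full, as were genes of the making and receptor lists past the test with a log2 fold change beyond 1 and the 2 most abundant tested genes per list. The members and lists were chosen with earlier results of these data known. Alternatives were DESeq2 1.42.0, other scalings and filters, a replicate block, a loess correction for GC content and length (span 0.3) and leaving out each library. Libraries of a line differed by more than sampling noise, with a chi-square per gene of 1.84 to 3.36 between MPC-PTX libraries and 14.9 to 60.7 between MPC libraries. Analyses used R 4.3.3 and Python 3.11.15.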

Additional observations from a re-analysis of the deposited data

How the results depend on the processing

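Col1a1, Col5a1, Col27a1, Col4a2, Col4a3, Col4a4 and Col18a1 kept direction and call in all 14 alternatives, and Col6a1 in the 13 in which it was tested. The 8 higher chains became 5 with at least 10 counts required in every library, where Col4a1 had an adjusted p of 0.0556 and Col8a1 one of 0.0507 in edgeR and Col6a1 was not tested, and 5 to 8 when a library was left out. The 3 lower chains stayed 3 in each. The 8 higher collagen making and receptor genes became 4 to 11 when a library was left out. The call of Col15a1 was also lost in DESeq2 (adjusted p 0.0936), and that of Col8a1 with DESeq2 size factors in edgeR (0.0520). Col4a5 passed with library size alone (edgeR adjusted p 0.0439) and with the GC and length correction (0.0305). The log2 fold change of Col7a1 turned to -0.0185 in DESeq2, -0.0216 with the replicate block, -0.0362 with the GC and length correction and the replicate block, and lay between -0.22 and 0.30 when a library was left out. The gain in total collagen, 155.7 CPM, was 187.5 with library size alone and 126.4 with DESeq2 size factors. Without Col4a1 the shares differed by -0.93 percentage points for fibrillar, 15.2 for network, 0.105 for beaded and -14.3 for multiplexin chains, and the beaded difference was 0.0866 per kilobase, against 0.0532 over reads. The cause of each was not tested.

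Deviations of same-numbered libraries correlated at 0.151, -0.0227 and 0.173 for replicates 1, 2 and 3. The correlation with GC content had the same sign in MPC and MPC-PTX for replicate 1 (0.491 and 0.287) and replicate 3 (-0.607 and -0.284). For replicate 2 the signs differed (0.356 and -0.0124). Correlations between differently numbered libraries are not given here, so these values do not decide whether replicate numbers pair the libraries. With the replicate block 7 chains were higher and 3 lower, and the call of Col15a1 was lost (edgeR adjusted p 0.0522). For the 27 chains that were not tested, few counts limit any comparison to the counting error.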
